A study of Mus musculus with 17 samples.

Results

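The genes described here encode the digestive enzymes of the exocrine pancreas and the proteins packed with them into zymogen granules. They were taken from a list of 31 symbols, and 30 were found in the deposited table of 40824 genes. The table had no row named Cela3a. The genes were followed in 2999 single cells of 17 libraries, in 2 ways: in cells classed as acinar, and as a low signal in cells classed as endocrine. A cell was classed as acinar where Prss2 reached 1500 and exceeded each of Ins1, Ins2, Gcg, Sst, Ppy, Pyy and Ghrl, on the scale of the authors' deposited signal table (UMIs per 100000 UMIs of the cell, leaving out 8 genes: Yam1, Iapp and the hormone genes just named except Ghrl). UMIs are unique molecular identifiers, the barcodes that mark single cDNA molecules. A cell was classed as endocrine where its highest hormone reached 1500 and exceeded Prss2. These rules gave 725 acinar cells, 2143 endocrine cells (1025 beta, 603 alpha, 259 delta, 254 PP and 2 epsilon) and 131 cells of neither kind.

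All mice carried Ngn3-Cre and Rosa-RFP, in which Cre driven by the endocrine progenitor gene Ngn3 switches on a lasting red label, and RFP-positive pancreatic cells were sorted and moved into lysis buffer by mouth pipette. Adult males received 1 injection of streptozotocin (STZ, a toxin taken up by beta cells) at 200 mg/kg at 2 months of age after an overnight fast, and 3 control libraries came from mice given citrate buffer. STZ libraries from mice with insulin implants were labelled D6, D12 (2 libraries), D30, D42, M2, M5 and M9, for days or months after STZ, although the series text also calls D6 day 1. Implants were discontinuous in the last 2 months before M9. A further 2 libraries came from mice at M2 without implants (NoIns), and 4 from untreated pups at postnatal day 3 (P3), 12 (P12, 2 libraries) and 21 (P21). The labels do not say whether libraries of a group came from separate mice or how many mice were pooled, so p-values measure only the spread between libraries.

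Acinar cells make digestive enzymes, many as inactive precursors, store them in zymogen granules and release them into the duct upon stimulation by cholecystokinin and acetylcholine. Trypsins (Prss and Try genes) activate the other precursors in the gut. Chymotrypsins (Ctrb1, Ctrl, Ctrc), elastases (Cela genes) and carboxypeptidases (Cpa1, Cpb1) cut protein, whereas lipases (Pnlip and Pnliprp genes), carboxyl ester lipase (Cel), colipase (Clps) and phospholipase (Pla2g1b) act on fat. Amylases cut starch and Rnase1 cuts RNA. Spink3 inhibits trypsin, and Zg16, Gp2, Sycn and Cuzd1 are granule proteins. These transcripts are so abundant in acinar cells that RNA released by broken cells is a familiar contaminant of islet preparations.

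The promoters of 4 members are shown, 3 of them because their genes differed with age in these cells: Prss1 and Pnliprp1 took a larger share of the enzyme UMIs in pups and Pnlip a smaller one. Prss2 is added because it defines the acinar class. The sequences are the 250 bases before the RefSeq start on GRCm38.p6, 5′ to 3′ on the strand of the gene, and capitals mark 3 motifs searched on both strands. CACCTG is the E-box element bound by the acinar factor PTF1. The other element of PTF1 sites is TTTCCCA. The nuclear receptor NR5A2 binds AAGGTCA.
Prss1, chr6:41458680-41458929, plus strand: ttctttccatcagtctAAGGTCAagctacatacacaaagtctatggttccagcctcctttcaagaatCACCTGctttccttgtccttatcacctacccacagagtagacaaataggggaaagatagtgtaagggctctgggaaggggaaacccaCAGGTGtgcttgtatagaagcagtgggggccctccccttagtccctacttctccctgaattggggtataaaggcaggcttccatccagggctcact
Prss2, chr6:41521526-41521775, plus strand: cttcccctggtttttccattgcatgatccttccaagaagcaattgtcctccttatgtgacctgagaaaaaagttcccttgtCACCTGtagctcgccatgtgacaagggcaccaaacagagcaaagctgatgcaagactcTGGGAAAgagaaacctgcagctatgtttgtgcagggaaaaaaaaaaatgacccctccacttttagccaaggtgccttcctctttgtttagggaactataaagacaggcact
Pnlip, chr19:58670115-58670364, plus strand: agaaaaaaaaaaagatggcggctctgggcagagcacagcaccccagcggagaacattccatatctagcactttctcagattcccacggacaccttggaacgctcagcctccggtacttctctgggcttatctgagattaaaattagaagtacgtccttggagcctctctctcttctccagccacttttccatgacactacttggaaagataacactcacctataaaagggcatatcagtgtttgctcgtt
Pnliprp1, chr19:58728637-58728886, plus strand: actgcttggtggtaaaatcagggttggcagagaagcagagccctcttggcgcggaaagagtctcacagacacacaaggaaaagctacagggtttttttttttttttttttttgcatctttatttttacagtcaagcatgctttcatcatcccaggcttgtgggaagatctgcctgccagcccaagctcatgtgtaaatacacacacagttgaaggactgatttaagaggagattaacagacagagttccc
CACCTG stood 2 times in the Prss1 window and 1 time in that of Prss2, which also held 1 TTTCCCA. The Prss1 window held 1 AAGGTCA. The windows of Pnlip and Pnliprp1 held none of the 3 motifs, and that of Pnlip lies inside the longer gene span of the GENCODE annotation. Of the 25 members matched in the RefSeq table, 15 had CACCTG in this window, beside 19.4% of 27025 genes. TTTCCCA was found in 6 members, beside 7.77% of genes, and AAGGTCA in 4 members, beside 4.70% of genes. The motifs did not overlap one another in the windows shown.

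The 7 trypsin-family members lie in a cluster on chromosome 6, from 41030268 to 41525079 on GRCm38 (GENCODE M21). The closest pair, Try4 and Try5, shared 97.1% of bases over the whole transcript, and Prss1 was nearest to Try4 at 92.2%. The annotated transcript of 2210010C04Rik is longer, at 2142 bases beside 801 to 860 in the other 6 of the 7. Identity was counted over the longer transcript of a pair. Its values of 30.4% with its nearest member and 58.7% over the last 300 bases therefore do not measure how far its coding sequence differs. Pnlip (19: 58652498 to 58681788), Pnliprp1 (19: 58728887 to 58744169) and Pnliprp2 (19: 58759719 to 58777534) stand next to each other, with 65.8% to 69.5% identity between pairs. The annotated transcripts of Amy2a2, Amy2a3 and Amy2a4 were identical, so reads from them cannot be assigned to one copy. How reads that fit several copies were counted is not given in the sources used here, and levels of single trypsin and amylase genes are uncertain to that extent.

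The median depth per cell ranged from 36134 UMIs in D12_1 to 77147 in D30 over the 17 libraries. Acinar cells were found in 14 of them, and their share varied widely. In controls they made 7.12% (21 of 295), 26.7% (72 of 270) and 0% of cells, the last being 0 of 22, which allows a share of up to 13.6%. In the STZ libraries with implants the share was 46.3% at D6, 26.6% and 37.9% at D12, 52.7% at D30, 39.2% at D42, 47.5% at M2, 13.7% at M5 and 14.3% at M9. Without implants, M2 libraries had 1.32% (1 cell) and 19.6% (10 cells). Pups had few: 0 of 204 cells at P3 (up to 1.47%), 4 of 78 and 0 of 74 at P12, and 2 of 243 at P21. The 5 libraries from D12_2 to M2, D6 included, lay above every control, whereas D12_1, M5 and M9 did not. The mean was 34.8% ± 15.0 (SD, n = 8) with STZ and implants and 11.3% ± 13.8 (SD, n = 3) in controls, a difference of 23.5 percentage points with p = 0.0606 in an exact two-sided permutation test over the libraries. The postnatal mean was 1.49% ± 2.46 (SD, n = 4), 9.77 points below the controls (difference -9.77), with p = 0.171 in the same exact test. The smallest p these designs allow is 0.00606 and 0.0286. Cells were hand-picked after a sort for RFP, so the share is one of the cells picked. Among cells whose read-file names begin with m181030, from 1 control and 3 STZ libraries, the share was 26.7% in Control_2, 57.3% at D6, 49.2% at D30 and 47.5% at M2. Leaving out 1 library at a time gave differences of 17.9 (without Control_3) to 31.2 points (without Control_2), with exact permutation p of 0.2 and 0.0222. Cells with Prss2 of at least 5000 differed by 0.71 points (exact permutation p = 0.782).

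**Figure D1:**
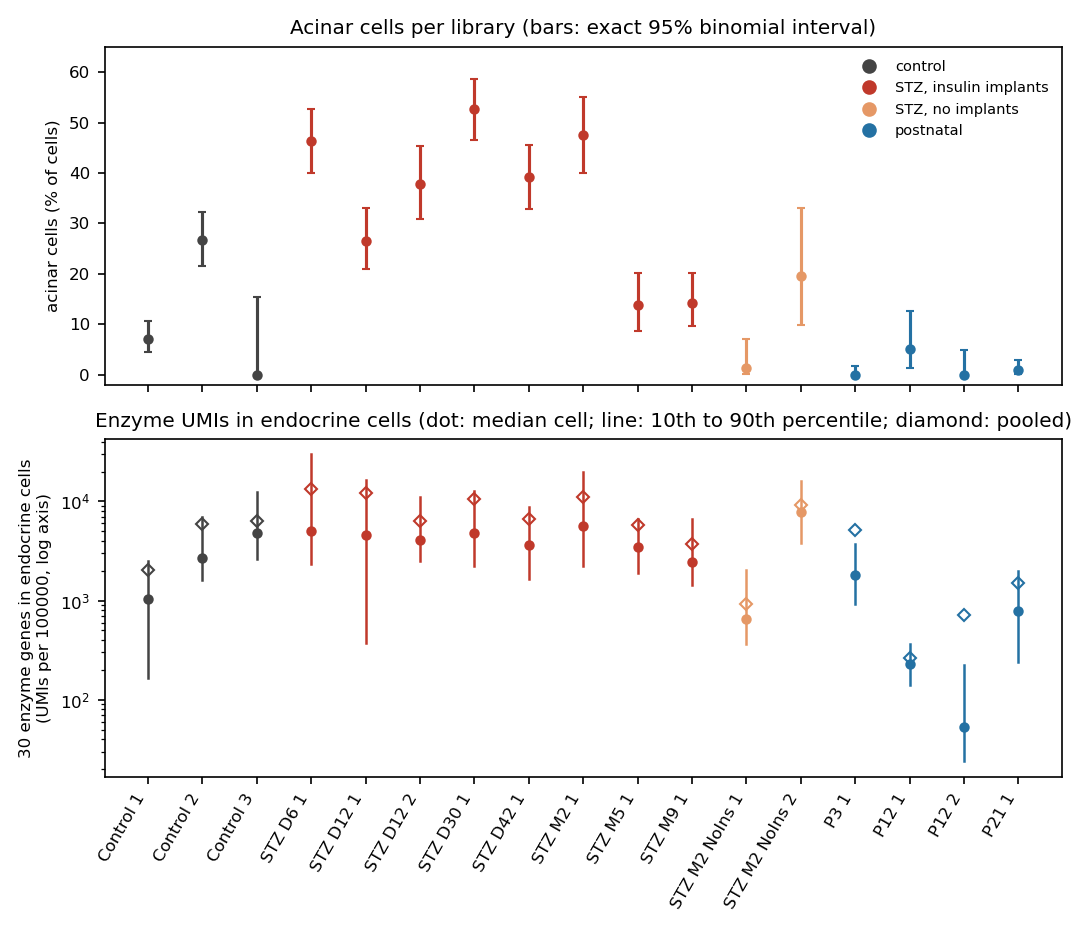
Top: acinar cells as a percentage of the cells of each of the 17 libraries, with exact 95% binomial intervals, which cover counting error only. Bottom: UMIs of the 30 enzyme genes per 100000 in endocrine cells on a log axis, with the median cell (dot), the 10th to 90th percentile (line) and the pooled value (diamond). The highest acinar share was 52.7% at D30, and the lowest median level was 53.5 in P12_2.

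In an acinar cell the 30 genes together made a median of 56.1% of the UMIs counted on this scale, from 21.2% to 81.4%. Each of Cpa1, Cela1, Ctrb1 and Pnlip had a UMI in 100% of the 725 cells. This does not set the class apart, since every endocrine cell had enzyme UMIs too. The acinar transcription factors Rbpjl, Bhlha15 and Ptf1a had one in 93.0%, 92.7% and 87.0%. Mafa, a beta-cell factor, was at 0, and the ductal marker Cftr had a UMI in 4.41% of cells. Cftr alone does not describe the ductal signal. Pooled over acinar cells, 8 ductal markers summed on this scale to 18.6 in Control_2, the lowest adult library, and 88.0 in D42, the highest. In pups the sums were 16.8 in P12_1 and 274 at P21. These markers were not particular to acinar cells: in beta cells they summed to 83.2 in Control_2, 81.5 in D42 and 217 at P21. The beta-cell sum was the higher one in every library with acinar cells except D42 and P21. Acinar cells of D12_1 also held immune markers, at a sum of 75.4, and stromal markers, at 22.3. The cells just outside the Prss2 limit had 1248, 1382, 1394, 1434 and 1440, and those just inside had 1556, 1557, 1561, 1621 and 1662. The limit is not a gap in the data: 13 cells had Prss2 of 1000 to 1500 above each hormone, those just outside the limit included. Mafa alone does not describe the endocrine signal: a hormone also reached 1500 in 43 acinar cells, and Iapp exceeded Prss2 in 1 acinar cell.

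Pooled over the acinar cells of the series, Ctrb1 was the highest member, at 3917 UMIs per 100000. Clps followed at 3315, and Prss2, which the class rule used, at 3297. Then came Cela1 at 2993, Pnlip at 2983, 2210010C04Rik (a trypsinogen gene) at 2970, Try5 at 2896, Try4 at 2865, Cpb1 at 2763 and Cpa1 at 2741. The values are UMIs counted per transcript molecule and are not divided by length. Successive members of this order differed by less than the spread over libraries: in adults with at least 10 acinar cells, Ctrb1 ranged over 3150 to 4836 and Clps over 2714 to 4312. Lower in the order stood Spink3 at 913, Prss3 at 269, Amy2b at 72.2 (annotated in GENCODE M21 as an unprocessed pseudogene), Ctrc at 53.6, Amy1 at 19.9 and Prss1 at 11.4. The 4 acinar cells of P12_1 held 39.7% of the Prss1 UMIs, and over adult acinar cells alone Prss1 stood at 6.75, with a library median of 2.36. The 5 Amy2a copies each stayed at or below 2.22 in the 10 control and STZ libraries compared below.

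Cell-to-cell variation within a library was small for most members. The median coefficient of variation over 10 libraries was 0.29 for Ctrb1, 0.25 for Pnlip, 0.21 for Cpa1 and 0.20 for Spink3. It was 1.18 for Prss3 and 2.42 for Prss1. Prss1 had a UMI in 45.2% of acinar cells, and a few cells held most of it: in D6, 12 of 114 cells exceeded 50 UMIs per 100000 and the highest reached 653, whereas in D30 the highest of 146 cells was 23.1. In Control_1, 3 cells held 87.6% of the library's summed Prss1 level.

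UMIs of the most abundant members rose less than the depth of the cell. From the 147 adult acinar cells under 80000 UMIs to the 79 cells of 240000 or more, the median depth rose 4.33-fold. Over the same step the median Ctrb1 count rose 1.75-fold, from 3976 to 6947 UMIs per cell, that of Prss2 2.00-fold and that of Clps 2.11-fold. Spink3 rose 6.82-fold, from 410 to 2798 UMIs, Cela2a 8.34-fold and Cuzd1 9.63-fold. The total of the 30 genes rose 2.70-fold. No cell had more than 8388 UMIs of a member. As a share of the cell the members therefore fell from a median of 69003 to 40525 UMIs per 100000 between these groups of cells. Median depth per acinar cell differed between the 10 control and STZ libraries compared next, from 91872 UMIs in Control_2 to 194445 in M5, and its part in the differences between libraries below is addressed only by the comparison of cells of similar depth.

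**Figure D2:**
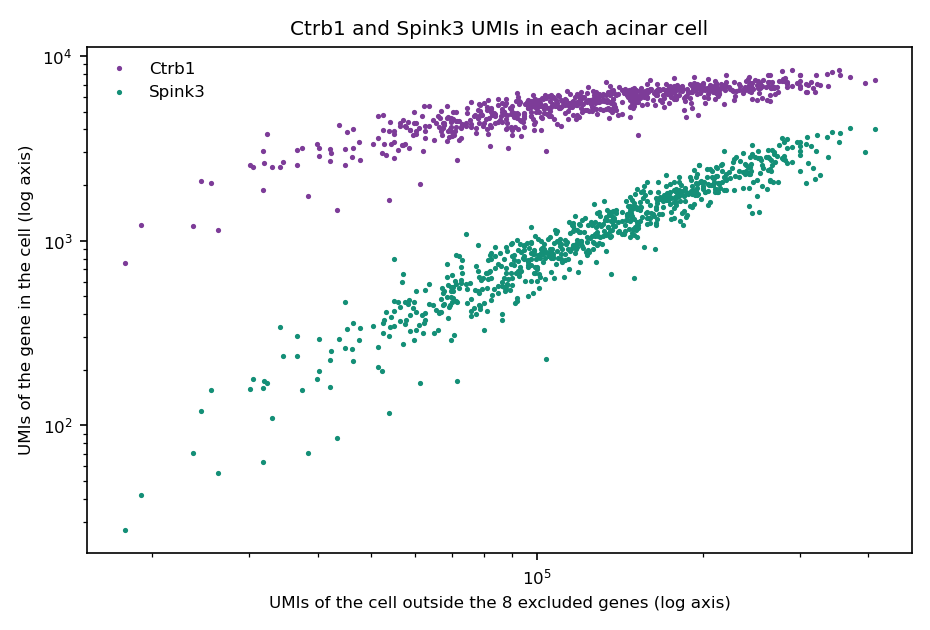
UMIs of Ctrb1 (purple) and Spink3 (green) in each of the 725 acinar cells against the UMIs of the cell outside the 8 excluded genes, both on log axes. Median Ctrb1 rose from 3976 to 6947 and median Spink3 from 410 to 2798 between adult cells under 80000 and those of 240000 UMIs or more.

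Acinar cells of the STZ libraries were next compared with those of the 2 control libraries that had at least 10, to see which enzymes differed after STZ. None of the 30 members was called in either direction, and none of the 11809 genes tested was (0% of genes called at an adjusted p under 0.05, edgeR quasi-likelihood test with Benjamini-Hochberg adjustment). An unadjusted p under 0.05 was reached by 14 members and 2554 genes (21.6%). DESeq2 called 746 genes and 2 members, Ctrc and Prss1, both lower. The log2 fold change was above 0 for 1 member, beside 56.4% of genes, and the members' median was -0.71, beside 0.12 over all genes. Scaling by total UMIs alone moved both medians up, to -0.09 for the members and 0.73 for all genes. In cells of 80000 to 160000 UMIs the members' median was -0.42, and without Control_2 it was -0.24.

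Values by library show how small the spread of the main enzymes was. Ctrb1 stood at 3834 and 4796 UMIs per 100000 in the 2 controls and at 3978, 4836, 3593, 4042, 3362, 4392, 3150 and 3622 from D6 to M9, with D12_1 before D12_2. The control with more acinar cells was among the highest and the groups overlapped. The fit gave -0.76 ± 0.36 (log2 fold change ± SE, adjusted p = 0.243, edgeR). Pnlip stood at 2884 and 3750 in controls and between 2608 and 3599 with STZ, a log2 difference of -0.78 ± 0.35 (adjusted p = 0.221, edgeR). Prss2 chose the acinar cells, so its value of -0.82 is a description only. Among the other trypsins, Try4 had -0.81 ± 0.34, Try5 -0.66 ± 0.35, 2210010C04Rik -0.72 ± 0.34, Try10 -0.39 ± 0.46, Prss3 -0.45 ± 0.53 and Prss1 -1.26 ± 1.09, with adjusted p from 0.190 to 0.649 (edgeR). Clps had -0.81 ± 0.36, Cela1 -0.78 ± 0.35, Cpa1 -0.69 ± 0.34 and Cpb1 -0.69 ± 0.34, with adjusted p from 0.211 to 0.258 (edgeR). Pnliprp2 and Gp2 were the members whose 8 STZ values, from the TMM-scaled counts, all lay below both controls, a pattern that 7.25% of all genes had, and 0 members lay above both, as 10.4% of genes did. On the scale of UMIs per 100000 both overlapped the controls, which stood at 658 and 443 for Gp2 beside 560 to 648 with STZ. Amy2b was the member above 0, at 0.19 ± 0.53 (adjusted p = 0.864, edgeR).

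Other listed exocrine genes were compared in the same way. None of 7 further enzyme genes, 8 acinar transcription factors, 11 receptor and granule-machinery genes or 8 acinar stress genes was called in either direction. The lists' median log2 fold changes were -0.51, 0.08, -0.15 and -0.73. Reg3g, a secreted lectin of inflamed pancreas, had the lowest value among the stress genes at -1.84 ± 0.44 (adjusted p = 0.0788, edgeR). It stood at 190 and 189 UMIs per 100000 in the 2 controls, at 169 at D6 and between 25.5 and 93.9 in the other 7 STZ libraries, with no overlap. On the TMM-scaled counts, 7.25% of all genes had every STZ library below both controls. Ductal markers moved with the groups: 8 of them summed to 25.8 and 18.6 UMIs per 100000 in acinar cells of the 2 controls and to between 34.3 and 88.0 in the 8 STZ libraries. In beta cells the same sum was 135 and 83.2 in these controls and between 60.7 (M2) and 164 (D6) with STZ. The part of these markers in the comparison was not tested.

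No member followed time after STZ at an adjusted p under 0.05 (0% of 11314 genes called, edgeR; 690 genes, or 6.10%, and 3 members at an unadjusted p under 0.05; 14 genes and 1 member, Prss3, by DESeq2). Prss1 had the steepest slope, -0.64 ± 0.18 log2 units per doubling of the days after STZ, followed by Prss3 at -0.38 ± 0.10 and Cela2a at -0.37 ± 0.13 (adjusted p = 0.793 for each, edgeR). D6 was entered as day 6, although the series text also calls it day 1, and without D6 the slopes of Prss1 and Prss3 were -0.22 and -0.25. Prss3, a minor trypsin, stood at 617 UMIs per 100000 at D6, at 304 and 196 at D12, at 234, 185, 190 and 245 from D30 to M5 and at 78.5 at M9. D6 was the highest and M9 the lowest. Cela2a, an elastase, stood at 544 at D6, 1040 and 504 at D12, 525 at D30, 660 at D42, 525 at M2, 345 at M5 and 125 at M9. The remaining members had slopes between -0.18 and 0.11, and 10 of 30 members had a slope above 0, beside 48.5% of genes. In the cells with Prss2 of at least 5000, a limit on the gene of the class rule that left 3 libraries, Prss1 was called, at -1.48 (adjusted p = 3.50e-11, edgeR).

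**Figure D3:**
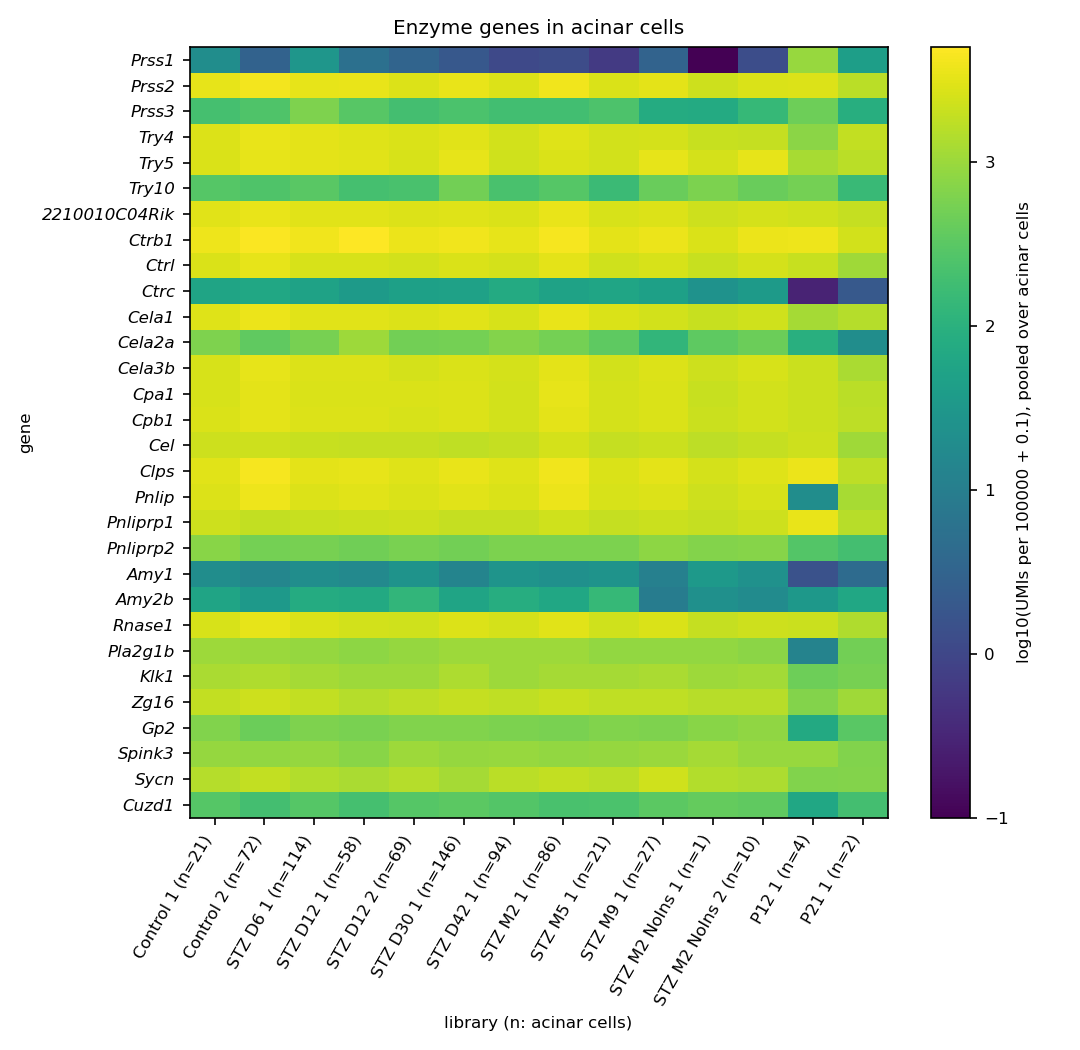
Level of each of the 30 genes pooled over the acinar cells of a library, as log10 of UMIs per 100000 plus 0.1, in the 14 libraries that had acinar cells (their number is given with the name). Adult columns are alike for most genes, whereas the 4 acinar cells of P12_1 stand out by high Prss1 (929) and low Pnlip (20.2).

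The few acinar cells of pups differed from adults in some enzymes. Only 4 cells at P12 and 2 at P21 were found, so no test was made. At P12 the pooled level of 13 members lay within the range of the 12 adult libraries, among them Prss2, Ctrb1, Clps and Cel, whereas 2 lay above and 15 below. Cpa1, Cpb1, Ctrl, 2210010C04Rik, Rnase1 and Try10 lay within it only through NoIns_1, which had 1 acinar cell, of 280309 UMIs. Cpa1 stood at 2096 at P12, at 2020 in that cell and at 2412 in D42, the lowest of the other adult libraries. At P21 nearly all were lower: 27 lay below, 2 within and 1 above. The P21 cells were deep, at 284373 and 267964 UMIs, and the members' share fell with depth in adult acinar cells. All members made 25705 and 30733 UMIs per 100000 in them, beside a median of 40525 in the deepest group of adult cells. Their 8 ductal markers summed to 274 UMIs per 100000, beside at most 88.0 in acinar cells of adult libraries and 217 in P21 beta cells. The part of depth and of the RNA of these markers in the lower P21 levels was not tested. Prss1 was between 867 and 962 UMIs per 100000 in the 4 P12 cells and 16.6 and 68.3 in the 2 P21 cells, whereas no pooled adult library exceeded 29.8, although single D6 cells reached 653. Pnlip, the main triglyceride lipase, was between 1.71 and 38.6 in the P12 cells and 924 and 1518 in the P21 cells, and between 2172 and 3750 in adult libraries. Its relative Pnliprp1 was between 2041 and 4527 at P12, 1409 and 1770 at P21, and between 1886 and 2251 in adults. Pla2g1b, a phospholipase, was at most 18.0 at P12 and at 382 and 635 at P21, beside 754 to 1045 in adult libraries. Ctrc was at most 1.03 in P12 cells and 3.43 in P21 cells, and between 24.7 and 74.2 in adults. No P3 cell met the acinar rule. Of the P3 endocrine cells, 6 had Prss2 of at least 1500 below a hormone, and these wells carried Prss1 of 458 to 1643, Pnlip of 3.27 to 22.9 and Pnliprp1 of 2180 to 3310.

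Every one of the 2143 endocrine cells had UMIs of the enzyme genes. In an endocrine cell they may stem from RNA free in the suspension, from an acinar cell in the same well or from the cell itself, which cannot be told apart in a single well. The median level, in UMIs of all 30 genes per 100000, was 1041, 2676 and 4820 in the 3 controls. It was 5057 at D6, 4638 and 4085 at D12, 4832 at D30, 3655 at D42, 5601 at M2, 3458 at M5 and 2435 at M9. The NoIns libraries had 652 and 7777, the lowest and the highest of all adult libraries. Pups had 1810 at P3, 230 and 53.5 at P12 and 784 at P21. Pooled over cells, the level was 2026, 5858 and 6318 in controls, between 3734 and 13333 with STZ and implants, and 5123, 265, 712 and 1488 in pups. In P12_2, 1 endocrine cell at 18322 lifted the pooled level above the median.

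On the log2 scale of the pooled level plus 1, STZ libraries with implants averaged 12.97 ± 0.65 (SD, n = 8) and controls 12.04 ± 0.92 (SD, n = 3), a difference of 0.93 with p = 0.0848 in an exact two-sided permutation test over libraries. This is 1.91-fold, and 5 of the 8 lay above every control. Postnatal libraries averaged 10.10 ± 1.80 (SD, n = 4), a difference from controls of -1.94 with p = 0.114 in the same exact test. None of the alternatives run for these differences gave a p under 0.05.

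Single wells with much enzyme RNA made part of the pooled level. Prss2 of at least 1500 stood beside a higher hormone in 92 cells. In endocrine cells such wells made 0.76%, 4.08% and 0% in controls, 15.3% at D6, 9.43% and 4.63% at D12, 7.09% at D30, 3.17% at D42, 18.5% at M2, 4.69% at M5 and 1.85% at M9. M2 and D6 had the most. In pups the share was 3.11% at P3, 0% in both P12 libraries and 0.85% at P21. Without these wells the pooled level at D6 fell from 13333 to 5545, and at M2 from 11131 to 5468. In NoIns_2 it stayed at 9137 of 9259.

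Libraries with more acinar cells had more enzyme UMIs in their endocrine cells. Over the 17 libraries the acinar share and log2 of the pooled level had Pearson r = 0.69 (permutation p = 0.0024) and Spearman rho = 0.73 (permutation p = 0.00122), adjusted to 0.012 and 0.0061 over the 5 settings computed. Without the 2 libraries farthest from the median share, D30 and M2, r was 0.65 (permutation p = 0.00879, adjusted 0.0146). Among the 12 libraries with replicate number 1, r was 0.74 (permutation p = 0.00572, adjusted 0.0143). Among the 8 STZ libraries with implants alone, r was 0.69 (permutation p = 0.0646) and rho 0.60 (permutation p = 0.132). Without the wells in which Prss2 reached 1500, r over 17 libraries was 0.59 (permutation p = 0.0117). Control_3 and P3 went against the relation. Control_3 had no acinar cell among 22 and a median level of 4820. P3 had none among 204 and a pooled level of 5123, above Control_1 at 2026 with an acinar share of 7.12%.

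Within libraries the level differed between sets of cells that share a read file. The read-file names split 10 libraries into 36 such sets, over which the acinar share and log2 of the median level had r = 0.55, a description with no test. In D12_1, the 1 set with no acinar cell had a median level of 346 in its endocrine cells, whereas the other sets had 4363, 4407 and 11268. In D42, the set with no acinar cell had 1253 and the other 4 sets 3370 to 4707. In Control_1 the sets had 223, 417, 1373 and 2063, in the order of their acinar share except that the lowest pair changed places (2.44%, 2.00%, 6.90% and 15.8%). Other libraries ran against this order. In Control_2 the set with the lowest acinar share (7.41%) had the highest level (3965), and in D6 the set with the lowest share (29.7%) had the highest level (6853). In D30 the set with the highest share (64.7%) stood at 4670, below sets of 44.3% (5607) and 49.2% (6305). Both sets of Control_3 had no acinar cell and stood at 3743 and 11965. In M2, 1 set of 57 cells stood at 16729, beside 3355 and 4128, and it held 13 of the library's 17 wells with Prss2 of at least 1500. Whether a set was collected on its own day or from its own mouse is not given in the sources used here.

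**Figure D4:**
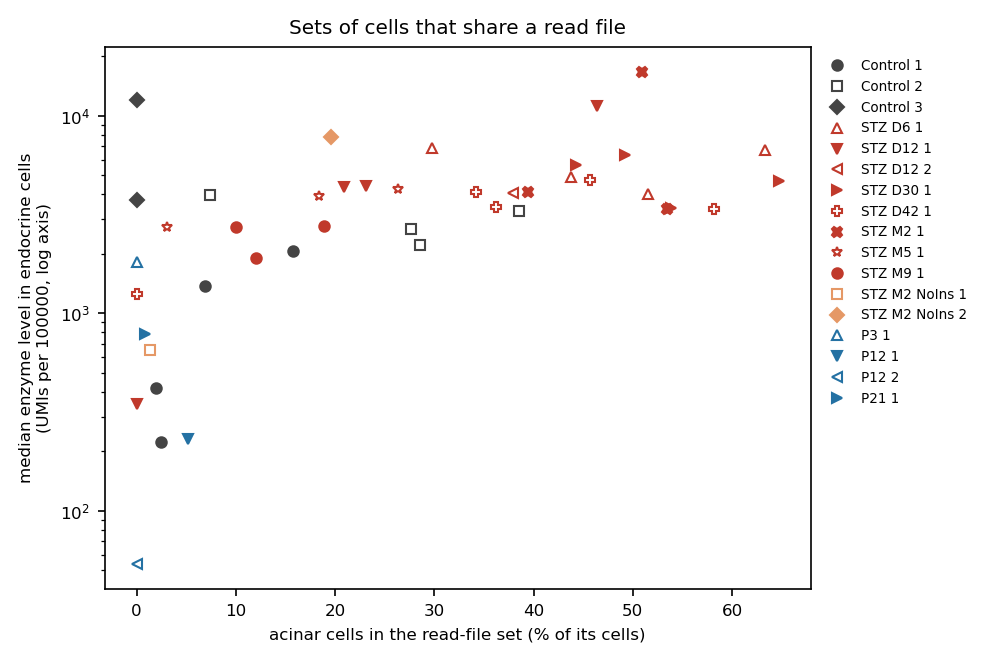
Median enzyme level in endocrine cells (UMIs per 100000, log axis) against the acinar share, for sets of cells that share a read file; libraries whose read-file names do not split them count as 1 set. The sets without acinar cells in D12_1 and D42 stood at 346 and 1253, those of Control_3 at 3743 and 11965, and a set of M2 at 16729.

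The make-up of the enzyme UMIs differed between endocrine and acinar cells of the same libraries. In all 12 adult libraries with acinar cells, Ctrb1 took a larger share of the 30 genes' UMIs in endocrine than in acinar cells, 10.7% to 18.5% beside 6.55% to 9.18%. Clps (7.45% to 18.4% beside 5.92% to 7.08%) and Prss2 (6.69% to 9.29% beside 5.43% to 6.86%) did so as well. In the opposite direction 14 members took a smaller share in every one of these libraries, among them Spink3 (0.60% to 1.10% beside 1.37% to 2.83%), Cel (2.23% to 3.33% beside 3.38% to 4.32%) and Gp2 (0.27% to 0.65% beside 0.73% to 1.77%). The members with the larger share are those whose UMIs rose least with depth in acinar cells. The part of that relation in the difference was not tested.

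Prss1, a trypsin gene at a low level in adult acinar cells, was frequent in endocrine cells at P3, P21 and in P12_1, whereas P12_2 overlapped the adults. It had a UMI in 99.0% of 193 endocrine cells at P3 (95.9% when each cell was thinned to 15000 UMIs), in 52.1% and 9.46% at P12 (13.7% and 4.05% thinned) and in 56.8% at P21 (33.6% thinned). In controls it had one in 4.56%, 4.59% and 0% of endocrine cells (1.15%, 1.53% and 0% thinned), and in STZ libraries in at most 13.7% (4.84% thinned). All 11 P3 cells of neither class had a Prss1 UMI too. Pooled Prss1 was 174 UMIs per 100000 at P3, 2.18 and 4.80 at P12, 5.90 at P21 and at most 2.92 in adult libraries. As a share of the enzyme UMIs it was 3.40% at P3, 0.82% and 0.67% at P12, 0.40% at P21 and at most 0.02% in adults. Most Prss1 UMIs of P12_2 came from 1 beta cell at 135 UMIs per 100000, so the P12_2 values largely describe that cell.

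Shares of other genes in the trace also differed between pups and adults. Pnlip made 0.08% of the enzyme UMIs in endocrine cells at P3, 0.31% and 0.05% at P12 and 3.45% at P21, and 5.45% to 7.10% in the 13 adult libraries. Pnliprp1 made 8.93%, 14.0%, 12.8% and 4.94%, and 2.34% to 3.52% in adults, so that no pup overlapped the adults for either gene. Ctrl, a chymotrypsin-like protease, made 0.90% at P3, 3.93% and 3.32% at P12, 2.98% at P21 and 3.59% to 5.26% in adults, so that P12_1 lay inside the adult range. In acinar cells Ctrl made 5.56% at P12, above the adult libraries, and 3.87% at P21, below them. Over the 30 genes, log2 shares in P3 endocrine cells had a Pearson r of 0.93 with the P12 acinar cells and between 0.57 and 0.71 with adult acinar libraries. For P12_2, which had no acinar cell, these values were 0.90 and 0.59 to 0.68. For Control_3, which had none either, they were 0.62 and 0.89 to 0.94. Most enzyme UMIs in P12_2 endocrine cells came from 1 cell at a level of 18322, so the P12_2 shares largely describe that cell. Of the 14 libraries with acinar cells, 6 matched their own acinar cells best by this r and 13 by Spearman rho. These correlations are descriptions over genes, which are not independent.

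**Figure D5:**
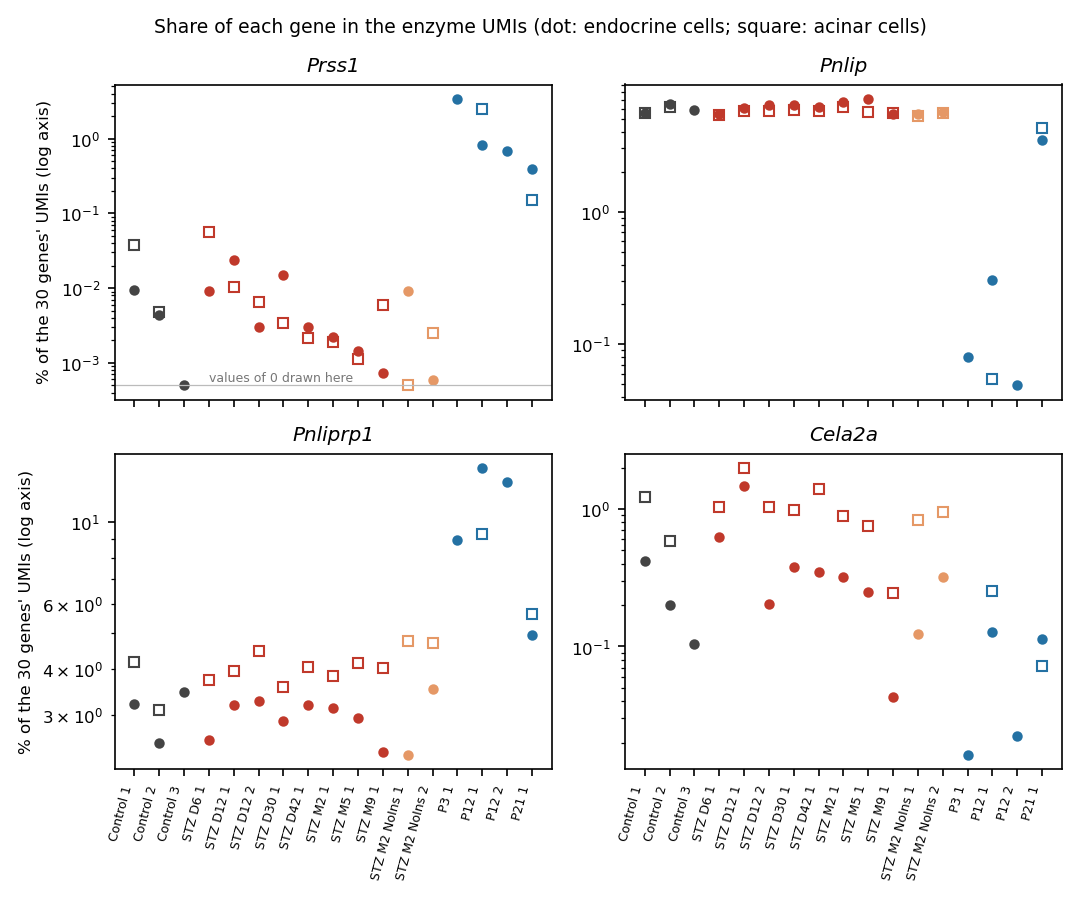
Share of Prss1, Pnlip, Pnliprp1 and Cela2a in the UMIs of the 30 enzyme genes (percent, log axes) in endocrine cells (dots) and acinar cells (squares) of each library. Prss1 made 3.40% at P3 and at most 0.02% in endocrine cells of adults, and Pnlip 0.08% at P3 and 5.45% to 7.10% in adults.

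In beta cells the fits across all genes gave few calls among the members. After STZ, 27 of 28 members tested had a positive log2 fold change against controls, beside 51.4% of genes, with a median of 1.15 beside 0.01 over all genes. None was called (2.93% of 10587 genes were called, 1.77% higher and 1.16% lower, edgeR). No member lay above or below every control in all 8 libraries, as 2.51% and 2.81% of genes did. An unadjusted p under 0.05 was reached by 8 members and by 12.5% of genes, and DESeq2 called no member among 532 genes. Prss2 stood at 204, 389 and 475 UMIs per 100000 in beta cells of controls and at 364, 1029, 389, 494, 424, 1370, 424 and 309 from D6 to M9. D12_1, with 15 beta cells, and M2, with 9, were far above the rest. Its log2 fold change was 0.92 ± 0.46 (adjusted p = 0.427, edgeR). Try4 had 1.40 ± 0.54, Cela2a 2.66 ± 1.15, Ctrb1 0.74 ± 0.43 and Clps 0.72 ± 0.42, with adjusted p from 0.234 to 0.545 (edgeR). Without the beta cells whose Prss2 reached 1500, the members' median was 0.25. With no filter on low counts 11 members were called higher, and more genes were called among all genes as well. Whether the members exceed the share over all genes in that setting was not tested. The replicate block left 69 genes and 0 members called. Of the further lists, 1 of 10 receptor and granule-machinery genes was called: Tmed6, a cargo protein of the secretory pathway also expressed outside acinar cells, rose by 1.32 ± 0.25 (adjusted p = 0.00633, edgeR).

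In beta cells of pups, 1 of 30 members was called against controls, where 0.0544% of 12862 genes were (7 genes, 0.00777% higher and 0.0466% lower, edgeR). A log2 fold change above 0 was found for 4 members, beside 53.3% of genes. Among all genes, 1359 (10.6%) had an unadjusted p under 0.05. This was Cela2a, which fell by 3.54 on the log2 scale (SE 0.48, adjusted p = 0.0185, edgeR). It stood at 9.52, 5.23 and 6.59 UMIs per 100000 in controls and at 0.84 at P3, 0.35 and 0.14 at P12 and 1.16 at P21, with no overlap. The call rests on all 3 controls and on P12_1, since without any one of them the adjusted p lay between 0.0548 and 0.189 (edgeR), and it was 0.142 with the replicate block and 0.0642 with scaling by total UMIs. Prss1 was higher in all 4 postnatal libraries than in any control, a pattern that 5.17% of genes had. It stood at 194, 2.22, 5.33 and 5.98 UMIs per 100000 from P3 to P21 and at 0.22, 0.19 and 0 in controls. Nearly all of the P12_2 value came from 1 of its 67 beta cells, with Prss1 at 135 and an enzyme level of 18322. The place of P12_2 above the controls therefore leans on that 1 well. Its other beta cells were not compared with the controls on their own. The control beta cells held 24, 12 and 0 Prss1 UMIs and those of pups 20541, 57, 150 and 418, so the gene passed the filter on low counts through the pups and its fold depends on a control level near 0. The fitted log2 fold change was 7.99 ± 1.75 (adjusted p = 0.125, edgeR), and without P3 it was 4.50 with an adjusted p of 0.0124 (edgeR). Without P21 the adjusted p was 0.0288 (edgeR). Each of these fits included the P12_2 cell that held most of that library's Prss1. In the other direction 7 members were lower in all 4 postnatal libraries, as were 6.10% of genes: Cela1, Pla2g1b, Ctrl, Pnlip, Cela2a, Ctrc and Amy1. Pnlip stood at 122, 274 and 376 in controls and at 4.54, 0.93, 0.07 and 65.6 in pups, a log2 difference of -4.02 ± 1.31 (adjusted p = 0.276, edgeR), and without P21 at -7.14 with an adjusted p of 0.00664 (edgeR). Ctrl had -2.75 ± 0.49 (adjusted p = 0.069, edgeR) and Pnliprp1 0.31 ± 0.69 (adjusted p = 0.906, edgeR). The lower total level in most postnatal libraries moves with all of these values, and its part in them was not tested. None of 4 further enzyme genes, 7 acinar transcription factors, 10 receptor and granule-machinery genes or 8 stress genes was called.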

How the data were processed

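Single-cell RNA (mSTRT-seq) was measured in 17 libraries. The deposited table of counts holds UMI counts per gene and cell, and the tools were UMI-tools 0.5.0, SAMtools 1.3.1, TopHat2 2.1.0 and featureCounts 1.5.3 with the mm10 build, per the submitters' processing notes. How multi-mapping reads were treated is not given in the sources used here. The authors' deposited signal table holds UMIs scaled to 100000 per cell without the 8 genes named in the text, and it chose the cell classes. cDNA was amplified over 18 and 4 PCR cycles, so binomial intervals (exact, 95%) and the floor of 3 counts cover counting error only. No doublet caller was run, and wells with both a hormone and Prss2 of at least 1500 are given instead.

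Counts were summed per library over acinar cells (libraries with at least 10) or beta cells and tested with edgeR 4.0.16 in R 4.3.3 (quasi-likelihood test, TMM scaling, filter on low counts, Benjamini-Hochberg adjusted p under 0.05). STZ libraries with implants and postnatal libraries were compared with controls, and time entered the trend as log2 days, a month being 30. For shares and levels the test was an exact permutation over libraries, two-sided, and correlations by 100000 permutations (Python 3.11.15, NumPy 2.4.6, SciPy 1.17.1). Alternatives were DESeq2 1.42.0, total scaling, no filter, the replicate block, other class limits and leaving out each library. The scripts were tested on simulated data. Named in full were the trypsin genes, the 10 members highest in acinar cells and each member or listed gene called. Other genes (among them Reg3g, Ctrc, Ctrl, Pla2g1b, Spink3, Cel, Gp2, Pnliprp1, Pnliprp2, Cuzd1, Amy2b and Zg16) were named after their values were seen. The members and lists were chosen with earlier results of these data known. No acinar comparison of pups with adults was fitted, because no postnatal library had enough acinar cells.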

Additional observations from a re-analysis of the deposited data

Results flagged for a closer look

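Of 36 groups of 4 to 10 libraries examined for a sample far from the others, 7 had one. Chance alone flags about 1 in 20 independent groups. Many of these groups are genes measured in the same libraries, so 7 of 36 cannot be read as an excess. P12_1 had an acinar share of 5.13% among the 4 postnatal libraries, and the next was 0.823%. In acinar cells of the 8 STZ libraries with implants, D6 stood apart by Prss1 at 29.8 UMIs per 100000 (next 5.39) and by Prss3 at 617 (next 304). M2 stood apart by the chymotrypsin-like Ctrl at 3194 (next 2689) and by the carboxypeptidase Cpa1 at 3330 (next 2778). M9 had the highest Pnliprp2, a lipase, at 799 (next 600.1), and D12_1 had the lowest Spink3, the trypsin inhibitor, at 723 (next 878).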

How the results depend on the processing

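The share difference between STZ and control libraries was 25.5 points over acinar and endocrine cells only (exact p = 0.0303) and 24.7 with Prss2 of at least 500 (exact p = 0.0364), 0.71 with Prss2 of at least 5000 (exact p = 0.782), and 17.9 to 31.2 points when 1 library was left out (exact p from 0.0222 to 0.2). The relation of share to level had r = 0.69 in the 8 STZ libraries alone. In acinar cells after STZ, 746 genes and 2 members were called by DESeq2, 25 genes with no filter, 12 with Prss2 of at least 5000, 37 in the m181030 files alone and 0 to 49 without 1 library. For the trend the counts were 14 genes and 1 member (DESeq2), 3 genes and 1 member (Prss2 of at least 5000), 4 genes (80000 to 160000 UMIs) and 0 to 1 without 1 library. In beta cells after STZ they were 532 (DESeq2), 479 genes and 11 members (no filter), 5 (m181030 files) and 113 to 403 without 1 library. In beta cells of pups they were 244 genes and 3 members (DESeq2), 4 and 0 (total scaling), 265 and 10 (no filter), 2 members without beta cells whose Prss2 reached 1500, and 0 to 141 genes and 0 to 4 members without 1 library. The numbers of genes tested in these settings are not given here, so the member counts are not read as an excess. In the acinar STZ comparison, Prss2 of at least 5000 turned Ctrb1 to 0.068, Cela1 to 0.010 and Prss1 to 1.54, and Prss1 was 1.67 in the m181030 files, 0.22 without Control_1 and from -2.62 to 0.22 over all libraries left out in turn. Both of these settings leave 1 control library, and the limit of 5000 is set on the gene of the class rule. The cause was not tested.

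Replicate numbers did not pair libraries (correlations of their deviations from -0.18 to 0.27). With the replicate block, 0 genes were called in acinar cells after STZ, 1 in the trend, 69 in beta cells after STZ, and 0 genes and 0 members in beta cells of pups.

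Few acinar cells in pups, 2 to 3 control libraries and depth that differs between libraries limit these comparisons.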

Other observations

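Try5 and Try4, which share 97.1% of transcript bases, did not keep one ratio. In endocrine cells Try5 to Try4 UMIs stood at 0.84 and 1.02 in Control_1 and Control_2 and at 0.84 to 1.43 from D6 to M5. The ratio was 4.15 in Control_3, 2.52 in M9, 3.00 and 4.16 in the libraries without implants and 5.04 in P12_2. The P12_2 ratio rests on 89 Try4 UMIs, most of them from 1 cell. The ratio stood at 1.58 at P3, 1.09 in P12_1 and 0.93 at P21. In acinar cells it was 1.31 in M9 and 1.22 and 1.69 without implants, beside 0.92 to 1.06 in the other adult libraries.

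The granule gene Zg16 was also high outside acinar cells. In D6, 3 cells of neither class had Zg16 at 7240, 10629 and 15295 UMIs per 100000 with Prss2 of at most 453. The mucin gene Muc2 stood at 1610, 2554 and 1378 and the trefoil factor Tff3 at 7153, 9407 and 14635 in the same cells.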
